A study of Homo sapiens with 13 samples.

Results

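Settled genes are described here: those whose level lay on the same side of the unstimulated array on all 4 arrays taken 240 and 480 min after stimulation, with either of the stimuli used. Of 7731 genes kept, 3642 met this rule, 1963 of them higher and 1679 lower than on the unstimulated array, and 4089 lay on neither side. The cells were MCF10A, a spontaneously immortalized, non-tumorigenic human mammary epithelial line that needs added growth factors to divide. All groups had been deprived of serum for 24 h. The arrays of 240 and 480 min (n = 4) held 1 array of epidermal growth factor (EGF) and 1 of serum at each time, and the unstimulated cells had 1 array. The word serum stands, as in the labels, for a mixture of heat-inactivated horse serum, insulin, hydrocortisone and cholera toxin. In the growth medium EGF stands beside this mixture, and the labels do not say whether the serum stimulation held EGF, which limits what a difference between the EGF and serum arrays means. The other 8 of 13 arrays were taken 20, 40, 60 and 120 min after EGF or serum. They are used for the course of the same genes, and the 6 arrays of 20, 40 and 60 min are called the first hour.

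Binding of EGF to its receptor switches on the RAS and ERK kinase cascade within minutes, and immediate early genes such as FOS and the EGR family are transcribed from factors already present in the cell. Their products, and feedback inhibitors such as the DUSP phosphatases and the SPRY proteins, shut the first wave down while a slower programme of growth and division genes takes its place. Deprivation of growth factors has the opposite character: FOXO factors, which AKT signalling keeps out of the nucleus, transcribe genes of growth arrest and nutrient sparing. Serum, insulin, hydrocortisone and cholera toxin reach the cell through other receptors, so EGF and serum share some pathways and not others.

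A level below is log2 of signal plus 6, quantile normalized, and a difference is on that log2 scale. It understates the change of dim genes. The unstimulated cells rest on 1 array, so its own error enters every difference from it and cannot be told apart from a lasting difference. Every stimulus and time had 1 array, and the labels do not say whether the arrays came from separate cultures, so a p-value here covers the spread between arrays only. The markers of basal mammary cells were bright: KRT14 had a signal of 4934.5 to 6975.0 on the 4 settled arrays and 5905.3 on the unstimulated array, and all 9 basal markers on the array passed the filter on dim genes. Of 14 luminal markers on the array 6 passed it (KRT8, KRT18, GATA3, MUC1, XBP1 and CD24), and their summed signal over all 14 was 8365.6 to 12315.0 on the settled arrays and 8572.7 on the unstimulated array. KRT18, a keratin of luminal cells, had a signal of 2884.6 to 3768.0 and 2679.8, while ESR1, PGR and KRT19 were among the 8 that did not pass. Markers of blood, vessel, stroma and fat cells passed it in 4 of 16 cases, and their summed signal over all 16 was 386.3 to 503.5 on the settled arrays and 657.4 on the unstimulated array. COL1A1, DCN and CD14 were lower on all 4 settled arrays, by 0.80, 0.51 and 0.64 on average. DCN and CD14 were also called lower against the first hour, as given with the complement genes. The part of these cells in the results was not tested. In RNA of whole cultures, fewer cells of a type and less RNA per cell cannot be told apart.

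Most settled genes lay close to the start. The smallest of a gene's 4 differences had a median of 0.153 among the higher genes and -0.156 among the lower ones, and it was under 0.1 in 701 and 618 of them. The rule was met upward by 25.4% and downward by 21.7% of the genes kept. At the edge, KPNA1 lay 0.0001 above and KIF11 0.0002 below the unstimulated array in its nearest settled array. The difference was at least 1.5-fold on all 4 arrays in 96 higher and 116 lower genes. It was at least 2-fold on all 4 in 15 higher genes (0.194% of the genes kept) and 19 lower ones (0.246%). SEMA3A was just inside that bound at 1.0089 and PCDH7 just outside at 0.9766, and on the lower side RC3H1 was inside at -1.0008 and F2R outside at -0.9990. Since the rule used these values, the counts describe the arrays and test nothing.

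The same contrast fitted across all genes gave no gene past the threshold. With limma, 4 settled arrays against the unstimulated array, 0 of 7731 genes (0.0%) had an adjusted p under 0.05, 667 had an unadjusted p under 0.05, and the smallest adjusted p was 0.237. Fitted with trended, robust variances the count was also 0 (722 unadjusted), and with all 13 arrays in the fit it was 0 (1104 unadjusted). The differences from the unstimulated array below are therefore given as values.

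**Figure D1:**
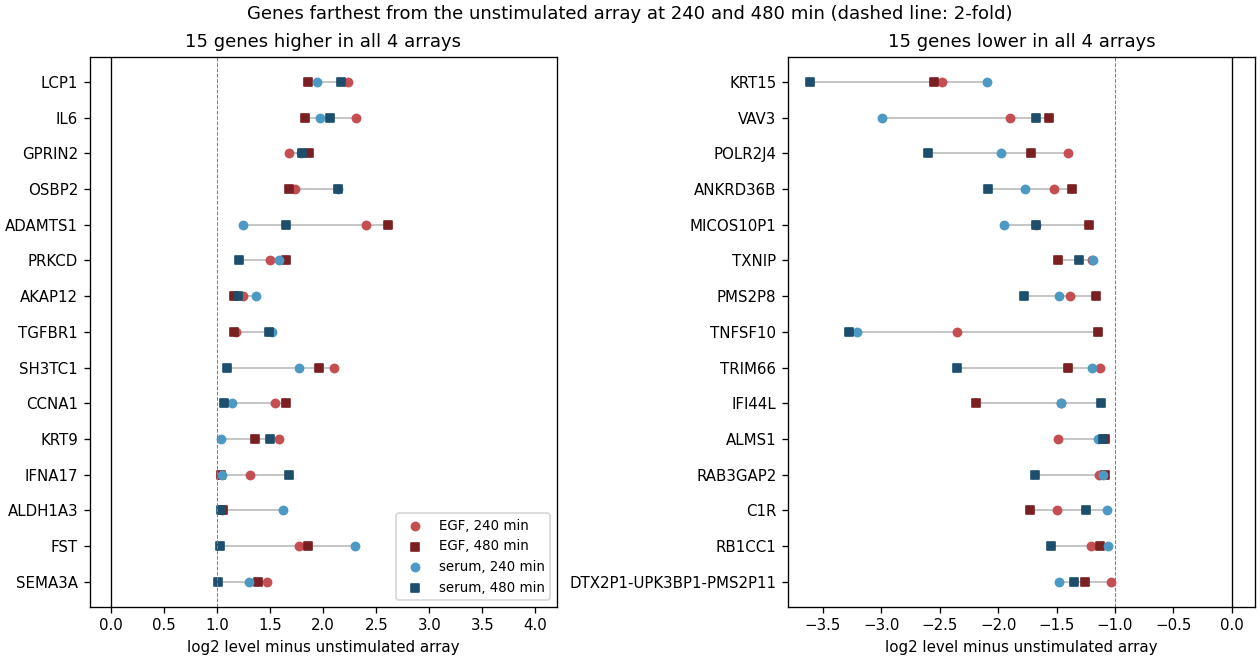
Differences of 15 higher (left) and 15 lower (right) settled genes from the unstimulated array on the log2 scale, 1 point per settled array (red EGF, blue serum; circles 240 min, squares 480 min). All points lie beyond the dashed 2-fold line; the points of LCP1 span 1.86 to 2.24 and those of TNFSF10 span -3.28 to -1.14.

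The higher genes of 2-fold or more included signalling proteins, secreted factors and enzymes, most of them dim at the start. LCP1, which encodes the actin-bundling protein L-plastin, had levels of 5.999 and 5.63 after EGF and 5.71 and 5.93 after serum at 240 and 480 min, against 3.77 in unstimulated cells. The 4 settled arrays lay close together and far above the start, a difference of 2.05 (SE 0.21, 4.14-fold, limma adjusted p = 0.237). The size depended on the offset added to a dim signal: it was 2.578 with an offset of 1 and 1.236 with an offset of 24. IL6, which encodes the inflammatory cytokine interleukin 6, had levels of 5.73 and 5.25 after EGF and 5.39 and 5.48 after serum, against 3.42 in unstimulated cells. Its difference was of the same size at 2.05 (SE 0.23), 2.784 with an offset of 1 and 1.116 with an offset of 24. Both starting values were near the bottom of the scale: the deposited signals behind them were 41.7 to 56.5 for LCP1 and 29.5 to 45.7 for IL6 on the settled arrays and 8.0 and 4.9 on the unstimulated array. In 11 of the 15 higher genes the unstimulated signal was under 20, where 36.8% of all probe sets of that array lay.

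Only AKAP12, CCNA1, ALDH1A3 and FST among the 15 had an unstimulated signal of 20 or more. ALDH1A3, an aldehyde dehydrogenase that makes retinoic acid, had signals of 510.4 and 514.4 after EGF and 764.0 and 505.3 after serum, against 247.1 in unstimulated cells. Its levels were 8.98 to 9.57, against 7.95 at the start, a difference of 1.19 (SE 0.28). AKAP12, a scaffold that holds protein kinases A and C, had levels of 7.04, 6.95, 7.16 and 6.98, against 5.79 in unstimulated cells. CCNA1, the cyclin A best known from germ cells, had levels of 6.50 and 6.61 after EGF and 6.10 and 6.03 after serum, against 4.96. AKAP12 was the most even of the 3 across arrays, and CCNA1 was higher after EGF than after serum.

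FST encodes follistatin, a secreted protein that binds and blocks activin. Its levels were 8.15 and 8.23 after EGF and 8.67 and 7.41 after serum, against 6.37 in unstimulated cells, a difference of 1.74 (SE 0.44). A second probe set for FST lay 1.62 above the start on average and above it on all 4 arrays. The 250 bases before its start site (RefSeq, GRCh38.p14, chr5:53480379-53480628, plus strand) are printed as an example of a higher gene whose promoter holds an AP-1 motif, TGANTCA, the binding letters of FOS and JUN proteins. Capitals mark that motif, at -160 to -154 from the start site, and a CCAAT box read on the opposite strand at -196 to -192.
FST: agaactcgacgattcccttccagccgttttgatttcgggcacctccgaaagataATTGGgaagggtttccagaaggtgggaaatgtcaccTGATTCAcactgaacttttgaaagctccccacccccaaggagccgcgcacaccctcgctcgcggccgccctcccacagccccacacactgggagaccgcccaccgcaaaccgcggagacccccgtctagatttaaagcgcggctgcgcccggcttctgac

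The other higher genes of 2-fold or more were all dim at the start. PRKCD, a protein kinase C, had levels of 5.99, 6.15, 6.08 and 5.70, against 4.49. ADAMTS1, a secreted protease of the matrix, had levels of 6.38 and 6.59 after EGF and 5.22 and 5.62 after serum, against 3.98, and the EGF arrays were the higher ones. TGFBR1, a receptor kinase for TGF-beta, had levels of 5.09, 5.06, 5.42 and 5.39, against 3.91. SEMA3A, a secreted guidance protein, had levels of 5.79, 5.71, 5.62 and 5.33, against 4.32. GPRIN2, OSBP2, SH3TC1, KRT9 and IFNA17 had mean differences of 1.78, 1.92, 1.73, 1.37 and 1.27, and IFNA17 is uncertain because interferon alpha genes are near copies of each other.

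Among the lower genes KRT15 stood out in size. It encodes a keratin of basal cells in stratified epithelia. Its levels were 8.71 and 8.64 after EGF and 9.10 and 7.58 after serum, against 11.19 in unstimulated cells, a difference of -2.68 (SE 0.53, 6.43-fold, limma adjusted p = 0.405). In deposited signal this was 422.3, 404.9, 551.9 and 181.2, against 2157.6, so both sides were far above the dim range. TNFSF10, the death ligand TRAIL, had levels of 5.56 and 6.76 after EGF and 4.70 and 4.63 after serum, against 7.91, a difference of -2.49 (SE 0.79). The serum arrays were the lowest, and the EGF array of 480 min lay nearest to the start. VAV3, a guanine nucleotide exchange factor, had levels of 5.91, 6.24, 4.81 and 6.13, against 7.81, with the serum array of 240 min lowest. Other probe sets lay below the start on all 4 arrays for TNFSF10 (mean differences -1.91 and -1.89) and VAV3 (-1.16).

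TXNIP, a protein that binds thioredoxin and holds back glucose uptake, had levels of 8.39 and 8.10 after EGF and 8.40 and 8.28 after serum, against 9.59 in unstimulated cells. The 4 arrays lay close together, and the difference was -1.29 (SE 0.20, 2.45-fold). Both other probe sets of TXNIP were lower on all 4 arrays, by 1.43 and 1.54 on average. Its promoter (RefSeq, GRCh38.p14, chr1:145996580-145996829, minus strand) is printed because TXNIP was the one gene, among the 2-fold lower genes with a promoter at hand, that held the FOXO motif GTAAACA. Capitals mark that motif at -124 to -118, and a CCAAT box on each side of it, at -140 to -136 on the opposite strand and at -105 to -101.
TXNIP: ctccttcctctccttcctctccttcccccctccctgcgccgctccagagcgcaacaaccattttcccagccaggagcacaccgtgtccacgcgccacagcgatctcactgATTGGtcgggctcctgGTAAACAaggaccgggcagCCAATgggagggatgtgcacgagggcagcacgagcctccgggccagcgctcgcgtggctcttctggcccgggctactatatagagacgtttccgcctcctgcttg

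C1R, a protease that starts the classical complement cascade, had levels of 6.70 and 6.47 after EGF and 7.13 and 6.95 after serum, against 8.20, a difference of -1.39 (SE 0.28). RB1CC1, a scaffold needed to start autophagy, had levels of 8.23, 8.31, 8.38 and 7.89, against 9.44, and its other probe set lay 0.40 below the start on average. IFI44L, an interferon-induced gene, had levels of 4.56, 3.83, 4.56 and 4.91, against 6.02. RC3H1, the RNA-binding protein roquin, which promotes mRNA decay, had levels of 5.98, 5.74, 5.90 and 5.72, against 6.98. ALMS1, a centrosome protein, was lower by 1.20 on its main probe set, while its others were lower by 0.37 and higher by 0.38, so its direction depended on the probe set. TRIM66 and RAB3GAP2 were lower by 1.52 and 1.25.

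The remaining 2-fold lower genes included 5 with near-identical copies elsewhere in the genome, ANKRD36B (-1.69), POLR2J4 (-1.93), PMS2P8 (-1.45), MICOS10P1 (-1.63) and DTX2P1-UPK3BP1-PMS2P11 (-1.28), whose probe sets may read several loci. Other probe sets of POLR2J4 and DTX2P1-UPK3BP1-PMS2P11 did not lie on 1 side. CEL (-1.53), which also has a close pseudogene, EVC (-1.72), a protein of the primary cilium, and AOPEP (-1.22), an aminopeptidase, complete the 19. These 3 were named after their values were seen. CEL and EVC were dim in the settled arrays: their signals were 4.1 to 17.1 and 2.1 to 22.2 there, against 48.8 and 61.7 in unstimulated cells. In 3 of the 19 lower genes the median settled signal was under 20.

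The earlier arrays give the course of these genes. The 15 higher genes were already above the unstimulated array after both stimuli in 12 cases at 20 min, 14 at 40 min, 14 at 60 min and 12 at 120 min. Their median difference was 0.68, 1.33, 0.83 and 1.23 after EGF and 0.80, 0.964, 0.998 and 1.49 after serum at those times. The 19 lower genes were below it after both stimuli in 15 cases at 20 min and in 18 at 40, 60 and 120 min. Their median difference was -0.53, -0.57, -0.69 and -0.93 after EGF and -0.71, -0.90, -0.81 and -1.11 after serum. In 10 of the 15 higher and 15 of the 19 lower genes all 12 stimulated arrays lay on that side. Among all settled genes this held for 584 of 1963 higher and 579 of 1679 lower (7.55% and 7.49% of all genes kept), and the rule had fixed 4 of the 12 arrays. A gene whose only unstimulated array reads low or high by error lies on one side at every time, and the shared array cannot be told apart from an early, lasting change.

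The arrays of 20 min gave a further measure of the start. All 4 settled arrays lay above the unstimulated array and both arrays of 20 min in 644 genes (8.33%) and below all of them in 563 (7.28%). These counts were 10 of the 15 higher and 10 of the 19 lower genes of 2-fold or more, which had met a part of that condition by the rule. Only 2 genes were at least 2-fold above all 3 of those arrays, ALDH1A3 and CCNA1 (0.0259%), and 3 were at least 2-fold below them, KRT15, TNFSF10 and TXNIP (0.0388%). This second baseline was chosen after the data were seen.

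A comparison that left out the unstimulated array set the 4 settled arrays against the 6 arrays of the first hour, with the stimulus as a block. With limma, 152 of 7731 genes were higher in the settled state (1.97%) and 209 lower (2.7%). The total of 361 was 128 to 268 when 1 of the 10 arrays was left out, lowest without the serum array of 40 min. Among the 2-fold genes, 7 of the 15 higher were called higher and 10 of the 19 lower were called lower. Both comparisons use the same 4 settled arrays, which favours calls in the same direction, so these counts do not stand as independent support.

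KRT15 averaged 8.51 in the settled state and 10.91 ± 0.21 in the first hour (SD, n = 6), and it fell by 2.40 (SE 0.25, limma adjusted p = 0.00249). TNFSF10 fell by 2.63 against the first hour, where it averaged 8.04 ± 0.31 (SE 0.36, limma adjusted p = 0.00738). TXNIP fell by 1.23 (SE 0.12, adjusted p = 0.00196), C1R by 1.24 (SE 0.10, adjusted p = 0.000998) and VAV3 by 1.79 (SE 0.27, adjusted p = 0.0112). All 5 calls held in 18 of 18 alternatives, which left out each of the 10 arrays in turn or changed the processing. On the higher side AKAP12 rose by 1.11 (SE 0.18, adjusted p = 0.0154), also held in all 18. FST rose by 1.10 (SE 0.21, adjusted p = 0.0228) but its call was lost when the array of EGF at 40, 240 or 480 min or of serum at 40 min was left out, and without the filter.

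Several of the genes farthest from the unstimulated array did not pass the test against the first hour. IL6 averaged 5.46 in the settled state and 5.96 ± 0.66 in the first hour (SD, n = 6), a difference of -0.50 (SE 0.29, limma adjusted p = 0.319). TGFBR1, KRT9, IFNA17 and SEMA3A had differences of 0.11, 0.22, 0.10 and 0.21 from the first hour, none past the threshold. On the lower side ALMS1 (-0.08), RC3H1 (-0.10), RAB3GAP2 (-0.20) and PMS2P8 (-0.26) were likewise near the first-hour level.

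ALDH1A3 rose by 1.15 against the first hour (SE 0.28, limma adjusted p = 0.0473), with the highest levels, 9.73 after EGF and 9.44 after serum, at 120 min. Its call was lost in 10 of 18 alternatives, 8 of them the omission of 1 array, all but the arrays of 60 min. CCNA1 rose by 1.06 (adjusted p = 0.025), a call lost without the filter and without the array of EGF at 40, 240 or 480 min or of serum at 240 or 480 min. LCP1 rose by 0.76 (SE 0.13, adjusted p = 0.0166) and lost the call only when no filter was used. PRKCD (1.02, adjusted p = 0.0471) and SH3TC1 (0.89, adjusted p = 0.033) lost theirs in 12 and 9 of 17 alternatives, and RB1CC1 (-0.69, adjusted p = 0.0347) and ANKRD36B (-0.66, adjusted p = 0.0435) in 11 of 18 each. The omission of any 1 array but that of EGF at 40 min ended the call of PRKCD, any but that of EGF at 60 min that of RB1CC1, any but that of serum at 240 min that of ANKRD36B, and any but those of serum at 60 and 480 min that of SH3TC1. The largest rises against the first hour that the naming rule picked beside these were IL1RN (1.23), THAP3 (1.21) and RNF25 (1.17), whose calls were lost in 5 of 16, 12 of 16 and 10 of 17 alternatives. For THAP3 and RNF25 8 of the 10 omissions of 1 array ended the call, and for IL1RN those of EGF at 480 min and serum at 40 or 480 min. The sizes for IL1RN, THAP3 and RNF25 depended on the offset: 1.49, 1.589 and 1.478 with an offset of 1. With an offset of 24 they were 0.787, 0.697 and 0.7.

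The immediate early transcription factors were often lower in the settled state than in the first hour. Of 17 genes kept, 9 fell against the first hour, against 2.7% of all genes kept. FOSB fell by 3.35 (SE 0.46, limma adjusted p = 0.00772), FOS by 3.09 (SE 0.64, adjusted p = 0.0308), EGR3 by 2.92 (SE 0.19, adjusted p = 0.000162) and EGR1 by 2.38 (SE 0.24, adjusted p = 0.00218). FOSB was at background in the settled state, with signals of 1.1 to 4.9, and passed the filter through the earlier arrays, so its size depended on the offset (-4.545 with an offset of 1 and -2.069 with an offset of 24). FOS lost its call in 7 of 18 alternatives, 6 of them the omission of an array of 40, 240 or 480 min. Set against the unstimulated array, FOS (6.48, 6.62, 5.59 and 3.80, against 5.16), EGR1 (7.28, 7.10, 6.45 and 6.96, against 7.22) and FOSB (3.50, 2.89, 3.01 and 3.01, against 3.10) lay on both sides of it. EGR3 was a settled gene at a small distance, with 4.63, 4.65, 4.60 and 4.56, against 4.10. These levels all lay below the filter bound of 4.68, so EGR3 too passed the filter through the earlier arrays. Its difference from the first hour was -3.206 with an offset of 1 and -2.257 with an offset of 24. FOSB and EGR3 are both counted among the 9 genes that fell. A filter passed through the earlier arrays favours a fall, so the calls of FOSB and EGR3 do not stand as support. FOSL1, a FOS relative with a slower course, was the highest of the list: 7.21, 6.95, 7.33 and 7.44, against 6.10, a difference of 1.13 (SE 0.23). In this list 5 of 17 genes were higher on all 4 arrays (29.4%, against 25.4% of all genes kept) and 1 lower (5.9%, against 21.7%). The median difference was 0.103, against 0.016 over all genes kept.

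Feedback genes of the ERK pathway were higher on all 4 arrays about as often as all genes. Of 15 genes kept, 4 were higher (26.7%, against 25.4% of all genes kept) and 0 lower (against 21.7%), with a median difference of 0.388, and without quantile normalization the counts were 3 and 1. The 4 were SPRY2 (0.59), DUSP5 (0.66), DUSP7 (0.54) and SPRY4 (0.59). DUSP7, a phosphatase of ERK, had levels of 8.24, 8.23, 8.18 and 8.004 in the settled state and 7.34 ± 0.18 in the first hour (SD, n = 6), and it rose by 0.83 (SE 0.10, limma adjusted p = 0.00584). DUSP5 fell by 1.01 against the first hour (limma adjusted p = 0.0441), a call lost in 10 of 18 alternatives, among them the omission of any 1 array but those of 20 min. DUSP6, the ERK phosphatase most used as a readout, had 9.74 and 9.70 after EGF and 8.25 and 8.68 after serum, against 8.53, so it was on neither side.

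Of 7 EGF family genes kept, 2 ligands lay above the start and 2 receptors below it, 28.6% each way, against 25.4% and 21.7% of all genes kept. With probe sets averaged 2 were higher and 1 lower. TGFA, a ligand of the EGF receptor, had levels of 9.36 and 8.91 after EGF and 9.35 and 8.82 after serum, against 8.20 in unstimulated cells, and it rose by 1.03 against the first hour (SE 0.14, limma adjusted p = 0.00738). That call held in all 18 alternatives. EREG, another ligand, had 8.90, 8.07, 7.84 and 7.67, against 7.16. EGFR had levels of 12.03, 12.09, 12.07 and 12.08, against 12.45, and fell by 0.32 against the first hour (SE 0.07, adjusted p = 0.0399), a call lost in 13 of 18 alternatives, among them the omission of any 1 of the 10 arrays. ERBB3 fell by 0.65 (adjusted p = 0.033), a call lost in 9 of 17.

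Complement and acute phase genes were mostly lower. Of 9 genes kept, 7 were lower on all 4 settled arrays and 0 higher, against 21.7% and 25.4% of all genes, with a median difference of -0.641. C1S, the partner protease of C1R, had levels of 6.50 and 6.54 after EGF and 7.16 and 6.17 after serum, against 7.91, a difference of -1.32. CFB, complement factor B of the alternative pathway, had 7.44, 7.46, 7.68 and 7.56, against 8.49 (-0.96). SERPINA3, a protease inhibitor of the acute phase, had 8.45, 8.50, 8.58 and 8.50, against 9.39 (-0.89). Against the first hour C1R, C1S, CFB and SERPINA3 fell, the last 3 by 1.40 (SE 0.19, limma adjusted p = 0.00721), 0.89 (SE 0.11, adjusted p = 0.00584) and 0.76 (SE 0.11, adjusted p = 0.0086). CFB lost its call when its probe sets were averaged, while the other 3 kept theirs in all 18 alternatives. Markers of stroma and monocytes fell in the same comparison, DCN by 0.84 (SE 0.12, adjusted p = 0.00915) and CD14 by 0.96 (SE 0.14, adjusted p = 0.00915), both held in all 18 alternatives. Their part in the fall of the complement genes was not tested. The list's 7 and 0 stood without quantile normalization and with probe sets averaged.

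**Figure D2:**
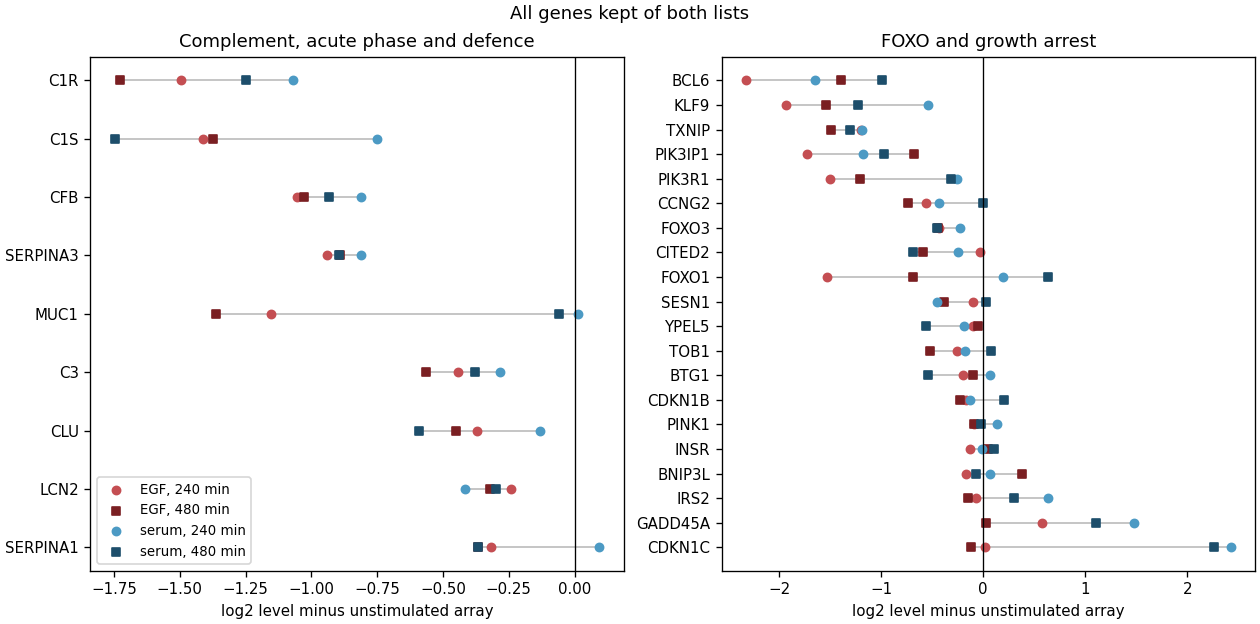
Differences from the unstimulated array (log2 scale, 1 point per settled array, red EGF, blue serum, circles 240 min, squares 480 min) for all 9 complement and defence genes and all 20 FOXO and growth arrest genes kept. C1R, C1S, CFB and SERPINA3 lie left of 0 on every array, and CDKN1C and FOXO1 are spread by stimulus.

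Genes of growth arrest, many of them FOXO targets, were lower more often than higher. Of 20 kept, 9 were lower on all 4 arrays (45.0%, against 21.7% of all genes kept) and 1 higher (5.0%, against 25.4%). Their median difference was -0.226. Beside TXNIP, BCL6, a transcriptional repressor, had 5.80 and 6.74 after EGF and 6.48 and 7.13 after serum, against 8.12 (-1.59, SE 0.47). KLF9 had 3.91, 4.30, 5.29 and 4.61, against 5.84 (-1.31), and PIK3IP1, an inhibitor of PI3-kinase, 4.34, 5.38, 4.89 and 5.09, against 6.06 (-1.14). Against the first hour 4 of the 20 fell, against 2.7% of all genes kept: TXNIP, BCL6 (-1.40, SE 0.26, adjusted p = 0.0213), KLF9 (-1.03, SE 0.16, adjusted p = 0.0128) and CITED2, the last named after its values were seen. BCL6 lost its call without the array of EGF at 240 min or of serum at 40 or 240 min and without the filter, and KLF9 only without the stimulus block. Among the settled arrays KLF9 lay above the filter bound of 4.68 only in serum at 240 min. It passed the filter through the other arrays, which favours a fall. Its difference from the first hour was -1.241 with an offset of 1 and -0.65 with an offset of 24. GADD45A, the 1 higher gene, also chosen after its values were seen, had 8.69 and 8.14 after EGF and 9.60 and 9.22 after serum, against 8.12.

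Of 8 circadian clock genes kept, 5 were lower (62.5%, against 21.7% of all genes kept) and 1 higher (12.5%, against 25.4%). With probe sets averaged 7 clock genes were kept, 3 of them lower and 1 higher. PER2, a repressor of the clock, had 6.78, 6.42, 6.83 and 6.68, against 7.22, and DBP, a clock output factor, 5.05, 4.42, 4.71 and 4.19, against 5.37. NFIL3, which binds the same sites as DBP, had 6.93, 6.91, 6.90 and 7.50, against 7.80, and fell by 0.93 against the first hour (SE 0.16, limma adjusted p = 0.0166), a call lost without the filter. Of 20 interferon response genes kept, 8 were lower and 3 higher, with a median difference of -0.153, and without quantile normalization 13 were lower and 2 higher. After IFI44L the largest were IFI27 (-1.15) and IFI44 (-0.67), while IFI35 was higher by 0.78. CEBPD, a transcription factor of the acute phase, had 8.64, 8.71, 8.53 and 8.15, against 9.59, and fell by 0.82 against the first hour (SE 0.10, limma adjusted p = 0.00469), a call held in all 18 alternatives.

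The lists of ribosome biogenesis, ER chaperone and mitochondrial genes had more members above the start than below it, by small amounts, while cholesterol and fatty acid synthesis had 2 higher and 4 lower of 19 (median -0.016). Over all genes kept the shares were 25.4% higher and 21.7% lower. Of 20 ribosome biogenesis genes and MYC targets kept, 9 were higher and 1 lower, with a median difference of 0.150. SRM, a polyamine synthase, had 8.40, 8.46, 8.51 and 8.75, against 8.04, and ODC1, which makes the precursor polyamine, 9.86, 10.22, 9.40 and 9.87, against 9.16. MYC itself, at 11.13, 11.16, 11.73 and 11.32, against 11.39, was on neither side. Of 15 genes for ER chaperones and the unfolded protein response 8 were higher and 3 lower, led by HERPUD1 (0.67), XBP1 (0.67), DNAJB9 (0.45) and HYOU1 (0.33). Of 14 mitochondrial genes 8 were higher and 2 lower, and CS, citrate synthase (-0.46), was the farthest of these 10. With probe sets averaged 5 of the 14 mitochondrial genes were higher and 2 lower, with a median difference of 0.047. Of 11 housekeeping genes 4 were higher (36.4%) and 3 lower (27.3%), with a median difference of 0.043. Shares above those of all genes kept thus occurred there too at small distances, though without a lean as one-sided as 9 and 1.

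Cyclin D1 was among the division genes above the start. CCND1, which carries the mitogen signal to the cell cycle, had levels of 8.11 and 8.14 after EGF and 8.17 and 8.35 after serum, against 7.69 in unstimulated cells and 7.32 ± 0.18 in the first hour (SD, n = 6). It rose by 0.87 against the first hour (SE 0.11, limma adjusted p = 0.00584), a call held in all 18 alternatives. Of 25 G1 and S phase genes 8 were higher (32.0%, against 25.4% of all genes kept) and 2 lower (8.0%, against 21.7%) on all 4 settled arrays. Among them CCND3 (0.37) and CDC25A (0.44) were higher and RRM1 (-0.47) lower. Of 22 G2 and M phase genes 2 were higher (9.1%) and 6 lower (27.3%), with TOP2A (-0.55) and KIF20A (-0.38) lower. The larger share of each list was near that of all genes kept. Against the first hour TOP2A differed by -0.16 and KIF20A by -0.23 (limma adjusted p = 0.431 and 0.238).

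Genes of the cell surface and its surroundings went both ways. PLAUR, the urokinase receptor, had 8.57 and 8.49 after EGF and 9.78 and 8.88 after serum, against 7.55, a difference of 1.38. CCN1 and CCN2, secreted matrix proteins with an early peak, were still above the start by 0.94 and 0.90 but below the first hour by 0.93 (limma adjusted p = 0.033) and 2.07 (adjusted p = 0.00855). The CCN1 call was lost in 8 of 18 alternatives, among them the omission of any 1 array but those of 20 min and of serum at 240 min, and the CCN2 call in 0. ITGA2, an integrin that binds collagen, had 9.64, 9.84, 9.88 and 9.09, against 8.82, and rose by 1.03 against the first hour (SE 0.18, limma adjusted p = 0.0181), a call lost without the array of EGF at 480 min or without the filter. ITGB8, which takes part in activating TGF-beta, had 5.29, 5.58, 5.58 and 5.45, against 6.22, and fell by 1.05 (SE 0.14, adjusted p = 0.00724). The integrin and laminin list had 4 higher (36.4%) and 5 lower (45.5%) of 11, against 25.4% and 21.7% of all genes kept. Without quantile normalization the counts were 5 and 2.

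Among cytokines and NF-kB targets 7 of 17 were higher (41.2%, against 25.4% of all genes kept) and 1 lower (5.9%, against 21.7%). The median was 0.315, with IL6, LIF (1.06) and CXCL3 (0.41) the named ones above the start and NFKB2 (-0.23) the one below. With probe sets averaged this list kept 16 genes, of which 4 lay above the start and 0 below, with a median of 0.133. Its larger share above the start thus depended on reading each gene by its brightest probe set. Keratinocyte differentiation genes had 2 higher (11.8%) and 5 lower (29.4%) of 17. IVL, a precursor of the cornified envelope, had 4.83 and 5.33 after EGF and 6.04 and 5.65 after serum, against 4.09. MDM2, the ubiquitin ligase of p53, had 6.25, 6.06, 6.38 and 6.35, against 7.28. MDM2 fell by 0.89 against the first hour (limma adjusted p = 0.0472), a call lost in 12 of 18 alternatives, among them the omission of any 1 array but that of serum at 60 min. OCLN, a tight junction protein, had 6.38 and 5.86 after EGF and 7.95 and 7.09 after serum, against 5.45, so the serum arrays were the higher ones.

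**Figure D3:**
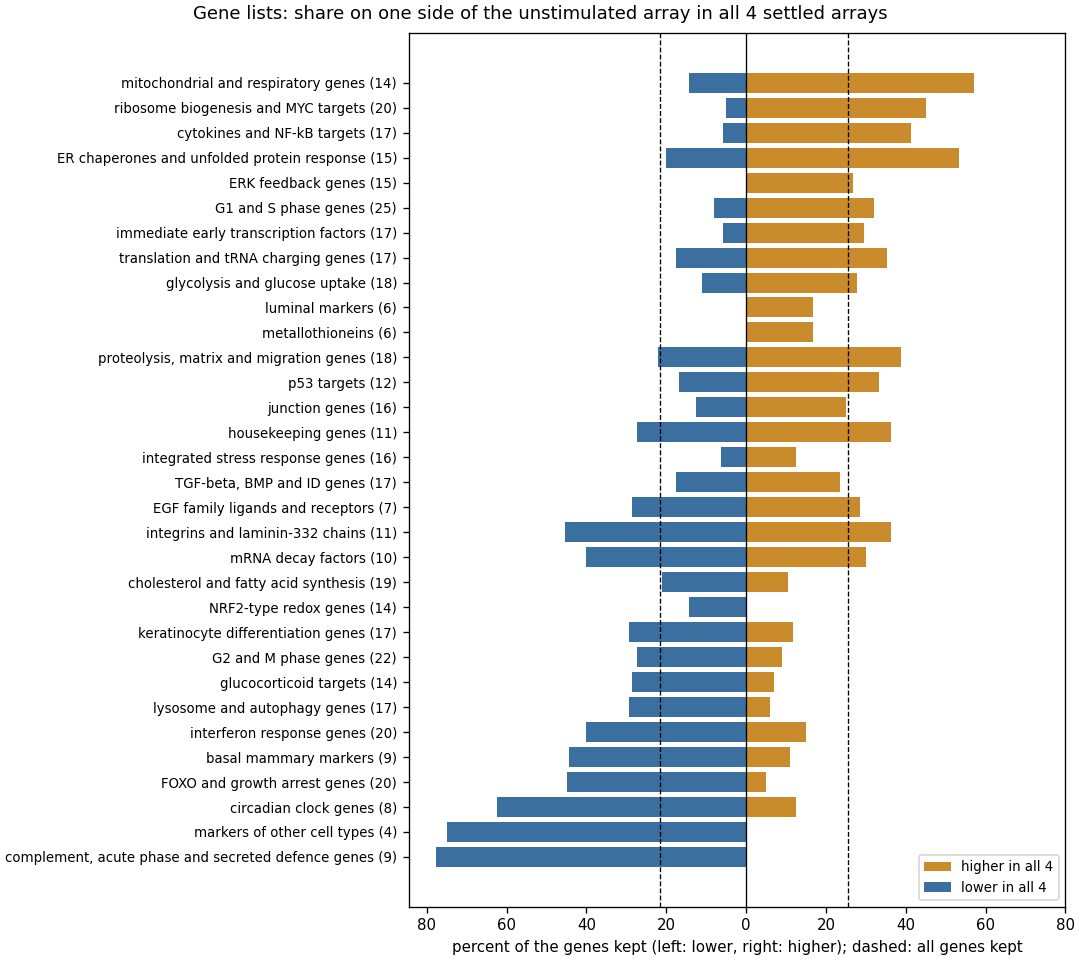
Share of each gene list, in percent of its genes kept (number in brackets), that lay above (right, orange) or below (left, blue) the unstimulated array on all 4 settled arrays. The dashed lines give the shares over all genes kept, 25.4% and 21.7%. Complement and acute phase genes reach 77.8% lower and mitochondrial genes 57.1% higher. Each gene is read by its brightest probe set, and with probe sets averaged 5 of 14 mitochondrial genes were higher.

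Within the settled state the arrays of 480 min were set against those of 240 min, in a model of the 12 stimulated arrays. With limma 0 of 7731 genes (0.0%) passed the threshold, 497 had an unadjusted p under 0.05 and the smallest adjusted p was 0.743. Fitted with trended, robust variances 0 passed as well (578 unadjusted). HERPUD1, a protein of the ER degradation machinery, had one of the largest statistics: 8.84 after EGF and 8.88 after serum at 480 min, against 9.60 and 9.61 at 240 min, a difference of -0.75 (SE 0.11, adjusted p = 0.743). The same was true of CRABP2, which had 4.23 and 4.16 at 480 min, against 5.30 and 5.51 at 240 min. Over the 34 genes of 2-fold or more the median size of the difference was 0.21, against 0.15 over all genes. A p that misses the threshold does not show that the levels were the same.

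The difference between EGF and serum in this window passed the test for 16 genes. In the same model 3 of 7731 genes were higher after EGF (0.0388%) and 13 were lower (0.168%). These calls depended on the arrays used: the count was 0 when any 1 of the settled arrays, or either array of 20 or 40 min, was left out, 2 without either array of 60 min, and 0 when only the 4 arrays were fitted. ANGPTL4, a secreted inhibitor of lipoprotein lipase, had 7.69 and 7.93 after EGF and 11.24 and 10.76 after serum, a difference of -3.19 (SE 0.26, limma adjusted p = 0.0391). ZBTB16, a zinc-finger repressor, had 4.46 and 3.79 after EGF and 7.25 and 6.89 after serum, against 7.33 in unstimulated cells. ZBTB16 thus met the rule as a lower gene although the serum arrays lay just below the start. The hydrocortisone of the serum mixture is a glucocorticoid, and of 14 glucocorticoid targets kept 4 were among the 16 genes called. The medians of that list against the unstimulated array were -0.757 and -0.736 after EGF and 0.285 and 0.251 after serum. The mixture also held horse serum, insulin and cholera toxin, and the part of each component was not tested.

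Of the 34 genes of 2-fold or more, 0 were called between EGF and serum with limma, 8 had an unadjusted p under 0.05, and TNFSF10 alone was called with trended, robust variances (adjusted p = 0.0055). Their median difference in size was 0.31, against 0.19 over all genes kept. TNFSF10 was 1.49 higher after EGF than after serum, EVC 1.36 and ADAMTS1 1.06. For EVC, dim on all 4 arrays, the difference was 2.049 with an offset of 1 and 0.669 with an offset of 24. LCP1 differed by -0.01 and GPRIN2 by -0.02, the closest pairs among the 15 higher genes.

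Other probe sets of the same genes served as a second reading on the same arrays. Of 903 other probe sets of the higher genes, 372 (41.2%) were higher on all 4 settled arrays and 97 lower. Of 1107 other probe sets of the lower genes, 432 (39.0%) were lower on all 4 and 127 higher. Over all genes kept, 952 of 4014 other probe sets were higher on all 4 and 933 lower. These readings share the RNA and the arrays with the first, the unstimulated array included.

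Exact matches to 12 motifs were counted on both strands of the 250 bases before the start site, in 13 of 15 higher and 13 of 19 lower genes of 2-fold or more and in 6457 of the 7731 genes kept for which RefSeq gave a promoter. The AP-1 letters TGANTCA were found in 2 of 13 higher genes (FST and OSBP2) and 1 of 13 lower genes (VAV3), against 3.8% of all. The FOXO letters GTAAACA were found in 0 of the higher and 1 of the lower genes, against 2.0% of all, and the CCAAT box in 4 of 13 each, against 36.3%. Over all 1674 higher and 1400 lower settled genes with a promoter, AP-1 letters were in 4.5% and 3.9%, and the ETS letters CCGGAAG in 19.7% and 14.9%, against 16.6% of all genes kept. The remaining motifs, CRE TGACGTCA, E-box CACGTG, EGR GCGTGGGCG, CHR TTTGAA, CHOP-ATF TGATGNAAT, E2F TTTCGCGC, SP1 GGGCGG and the TATA box, had matches in 0.2% to 69.2% of the promoters of the higher and of the lower settled genes. A match is a run of letters and no measure of binding.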

How the data were processed

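RNA of MCF10A cells had been measured on 13 Affymetrix arrays of 22277 probe sets. The deposited values are MAS5 signal intensity on a linear scale, per the submitters' processing notes, which name no version. The trimmed mean was 150.04 to 150.05 on all arrays. For the EGF array of 20 min the title was followed, since its description says 40 min. Detection calls were not used here.

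Values were log2 of signal plus 6, quantile normalized (limma 3.58.1, R 4.3.3). Each of 11963 genes with 1 symbol was read by its brightest probe set; 7731 at or above the 40th percentile of probe set means (4.68) were kept. limma's lmFit and eBayes were used, two-sided, with Benjamini-Hochberg adjustment over all genes kept and residual degrees of freedom of 3 (settled against unstimulated; both tests within the settled state) and 7 (against the first hour). The scripts were tested on simulated data. The number of arrays limits the precision. Genes named were the 15 each way with the largest smallest-of-4 difference, up to 5 each way per other test (3 by statistic where none passed), up to 4 settled genes of each of 32 lists, and 6 fixed genes. Members and lists were chosen with earlier results of these data known.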

Additional observations from a re-analysis of the deposited data

Results flagged for a closer look

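The difference between EGF and serum at 240 and 480 min passed the limma threshold for 16 genes, of which 8 are named by size. Higher after EGF were CEMIP (2.08), CNGB1 (1.49) and VAC14 (1.41). Lower after EGF were ANGPTL4 (-3.19), ZBTB16 (-2.95), ABLIM3 (-2.28), SLC26A2 (-2.21) and DUSP1 (-2.09). CEMIP had levels of 5.18 and 5.59 after EGF and 2.97 and 3.63 after serum. Its serum signals of 1.8 and 6.2 were at background, and the difference was 3.003 with an offset of 1, where the call was lost, and 1.096 with an offset of 24. SLC26A2, a sulfate transporter, had 9.36 and 9.03 after EGF and 11.36 and 11.44 after serum. DUSP1, a phosphatase of MAP kinases, had 9.26 and 9.10 after EGF and 11.48 and 11.05 after serum, with 10.20 in unstimulated cells between them.

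Probe sets with several gene symbols or none entered no gene test. Of 1584 that passed the filter on dim values, 5 were at least 2-fold higher and 18 at least 2-fold lower than the unstimulated array on all 4 settled arrays.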

How the results depend on the processing

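The number of settled genes stayed within 1.5 times under every planned change, with 4240 to 4380 when 1 settled array was left out (2273 to 2373 higher, 1941 to 2030 lower). Without quantile normalization the share of higher genes among them was 44.1%, against 53.9% with it, and the median difference of all genes -0.038, against 0.016. Against the unstimulated and both 20 min arrays, an alternative added after seeing the data, 644 were higher and 563 lower, and 2 and 3 at 2-fold. The genes of 2-fold or more depended on the scale and the filter: 33 were higher with an offset of 1. With an offset of 24, 2 were higher and 7 lower; without quantile normalization 9 and 37; without a filter 45 and 68; with a filter at the 60th percentile 3 and 10; at 1.5-fold 96 and 116; and 23 to 26 and 25 to 32 without 1 settled array. The unstimulated array could not be left out. Settled against unstimulated and 480 against 240 min gave 0 genes under every alternative. EGF against serum gave 0 with an offset of 1, 61 with an offset of 24, 30 without quantile normalization, 0 without a filter, 116 with the stricter filter, 345 with trend and robust variances, 0 in the 4 arrays alone and 0 to 16 without 1 array. Settled against the first hour gave 70 without a filter, 636 with the stricter one, 721 with trend and robust variances, 212 without the stimulus block and 128 to 268 without 1 array. Without a filter more genes were tested; the cause of the other moves was not tested. The sign turned for ENO1 (0.015), S100A2 (0.063) and MYC (0.047) without quantile normalization, for WIPI1 (0.061) with probe sets averaged, and for MYC without the array of EGF at 240 min (0.016) or 480 min (0.005), with a range of -0.185 to 0.016 when 1 array was left out. No paired analysis was possible because each stimulus and time had 1 array, so no replicate numbers pair samples; the stimulus was the block in the test against the first hour. Dim signals limit the higher genes most.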
